A study of Mus musculus with 9 samples.

Results

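The 10 genes known from mast cells and basophils that are described here, Gzmb, Cpa3, Lat2, Alox5, Slc6a4, Slc18a2, Hdc, Mitf, Ms4a2 and Cyp11a1, were followed across 3 cell populations sorted from mouse haematopoietic stem cell (HSC) cultures. They were taken by gene symbol from a table of 49585 genes, and all 10 had a row. Of these, 8 passed the filter on low counts and were tested among 11619 genes, while Hdc and Ms4a2 did not pass and are described by raw counts. The study performed RNA-seq on wild-type C57BL/6 bone marrow cells that entered culture as CD34-CD150+KSL cells, where KSL stands for Kit+, Sca-1+ and lineage marker-negative. All 3 populations had shared the same medium, F12 with 0.1% polyvinyl alcohol (PVA) in place of albumin and, among other components, 10 ng/ml stem cell factor (SCF). Culture lasted 10 days according to the series design and a week according to the growth protocol.

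The first population was CD201+CD150+CD48-KSL, the second CD201+CD150+CD48+KSL and the third CD201-KSL, each with 3 replicate libraries. They are called CD201+CD48-, CD201+CD48+ and CD201- from here on. CD201 is the endothelial protein C receptor, a surface marker of HSCs, and CD48 is absent from most HSCs. The sample titles add CD150+CD48+ to the gate of the CD201- cells, which the treatment labels do not. The labels used here give no age or sex of the mice. No label says that replicates came from separate cultures or animals, so p-values measure the spread between these libraries, which may be technical.

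Mast cells and basophils are granulocytes that carry the high-affinity IgE receptor. When antigen crosslinks it, a chain of kinases and adaptor proteins releases granules filled with proteases and histamine and starts the synthesis of leukotrienes from arachidonic acid. Both cell types descend from HSCs through progenitors in which GATA2, MITF and C/EBPα act as fate regulators. Several of their genes are also used by other blood cells, Gzmb by cytotoxic lymphocytes and Slc6a4 by platelets, and transcripts such as Cpa3 are known from early progenitors. The list therefore names where the genes are best known, not a cell type in these libraries.

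Library totals ranged from 3810123 to 7072885 counts, with 13663 to 17845 genes detected. Levels are CPM, read counts relative to scaled library sizes, as mean ± SD over 3 libraries. Procr, the gene of CD201, measured 63.2 ± 3.74, 26.5 ± 2.16 and 3.56 ± 1.07 CPM in the CD201+CD48-, CD201+CD48+ and CD201- libraries. It was lowest in CD201- libraries, as sorted. The sort sets no CD201 order between the CD201+ populations, where Procr was 2.38-fold higher in CD201+CD48- libraries. Cd48 measured 5.86 ± 0.671, 83.3 ± 7.22 and 124.7 ± 4.25 CPM. CD201- replicate 3 stood apart from the other CD201- libraries, with 679 and 680 genes differing over 2-fold against 225 between replicates 1 and 2. In bulk samples, fewer cells of a type and less RNA per cell cannot be told apart.

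The promoters of 3 genes are shown, the granule protease genes Gzmb and Cpa3, which were highest in CD201- libraries, and Slc6a4, which was highest in CD201+CD48- libraries. Each is the 250 bases before the annotated start, read 5′ to 3′ on the gene's strand from RefSeq on GRCm38.p6, the assembly behind mm10. They lie at chr14:56262335-56262584 on the minus strand, chr3:20242182-20242431 on the minus strand and chr11:76998347-76998596 on the plus strand. Capitals mark a match to one of 4 motifs searched on both strands, the E-boxes CACGTG and CATGTG that MITF is known to bind, and the GATA sequences AGATAA and TGATAA.
Gzmb: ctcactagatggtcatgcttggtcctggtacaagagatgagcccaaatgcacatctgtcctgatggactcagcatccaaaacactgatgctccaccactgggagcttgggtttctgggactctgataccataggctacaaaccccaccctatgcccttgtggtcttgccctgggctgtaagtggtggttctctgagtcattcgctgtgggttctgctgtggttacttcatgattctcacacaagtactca
Cpa3: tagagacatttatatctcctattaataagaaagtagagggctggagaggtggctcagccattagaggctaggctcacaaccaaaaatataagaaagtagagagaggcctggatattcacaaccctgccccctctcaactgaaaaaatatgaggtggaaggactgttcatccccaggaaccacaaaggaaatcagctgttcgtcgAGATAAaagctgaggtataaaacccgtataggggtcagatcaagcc
Slc6a4: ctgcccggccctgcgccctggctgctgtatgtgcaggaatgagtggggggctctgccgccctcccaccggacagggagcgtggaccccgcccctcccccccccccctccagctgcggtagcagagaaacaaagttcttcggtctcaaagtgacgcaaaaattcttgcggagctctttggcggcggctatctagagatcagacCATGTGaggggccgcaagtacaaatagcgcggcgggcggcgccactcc
The Cpa3 window holds AGATAA 46 bases before the start, the Slc6a4 window holds CATGTG 48 bases before it, and the Gzmb window holds none of the 4. For Gzmb, unlike Cpa3 and Slc6a4, sequence just after the start was not found in a GENCODE transcript of the gene, so its start is less certain.

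RefSeq promoters were at hand for 9 of the 10 genes, in 12 windows, since some genes have several starts. Among all 32851 mouse windows of the same length, CACGTG was found in 6.02%, CATGTG in 12.3%, AGATAA in 9.99%, TGATAA in 7.94% and at least 1 of the 4 in 31%. At least 1 motif was found in 7 of the 12 windows, which belong to 6 genes. The IgE receptor gene Ms4a2 had 3 GATA matches, at 224, 37 and 11 bases before its start, none overlapping another. Mitf had a GATA match at each of 2 of its 3 starts, and Slc18a2 had one 230 bases before its start. Cyp11a1 had CATGTG 220 bases before 1 start and no match before its other start. Sequence after the former start, unlike that after the latter, was not found in a GENCODE transcript of Cyp11a1. No match was found in the windows of Alox5 and Hdc. A match is a description of letters, not of binding.

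In all, 8 of the 8 tested members were called in CD201+CD48- against CD201- libraries, at a Benjamini-Hochberg adjusted p under 0.05 in edgeR's quasi-likelihood F test. Slc6a4 and Mitf were higher and the other 6 were lower. The background was high, since 48.1% of all tested genes were called in this comparison, 24.2% as higher and 23.9% as lower. In CD201+CD48+ against CD201- libraries, 7 members were lower, 0 were higher and Mitf was not called, against a background of 29.1% called, 14.8% higher and 14.3% lower. Between the CD201+ populations, 3 members, Gzmb, Alox5 and Slc6a4, were higher in CD201+CD48- libraries and 5 were not called, against a background of 15.4% called, 9.05% higher and 6.31% lower. The count of all genes behind that last background, 1785, was 3534 without CD201- replicate 3 and 1023 without CD201+CD48- replicate 1. A gene could pass the filter through 1 population alone, so these counts describe the 8 genes that passed. Members were also chosen with earlier results of these data known, so an excess over background is not a finding about such genes. The comparisons share libraries and are set side by side, not as independent evidence.

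**Figure D1:**
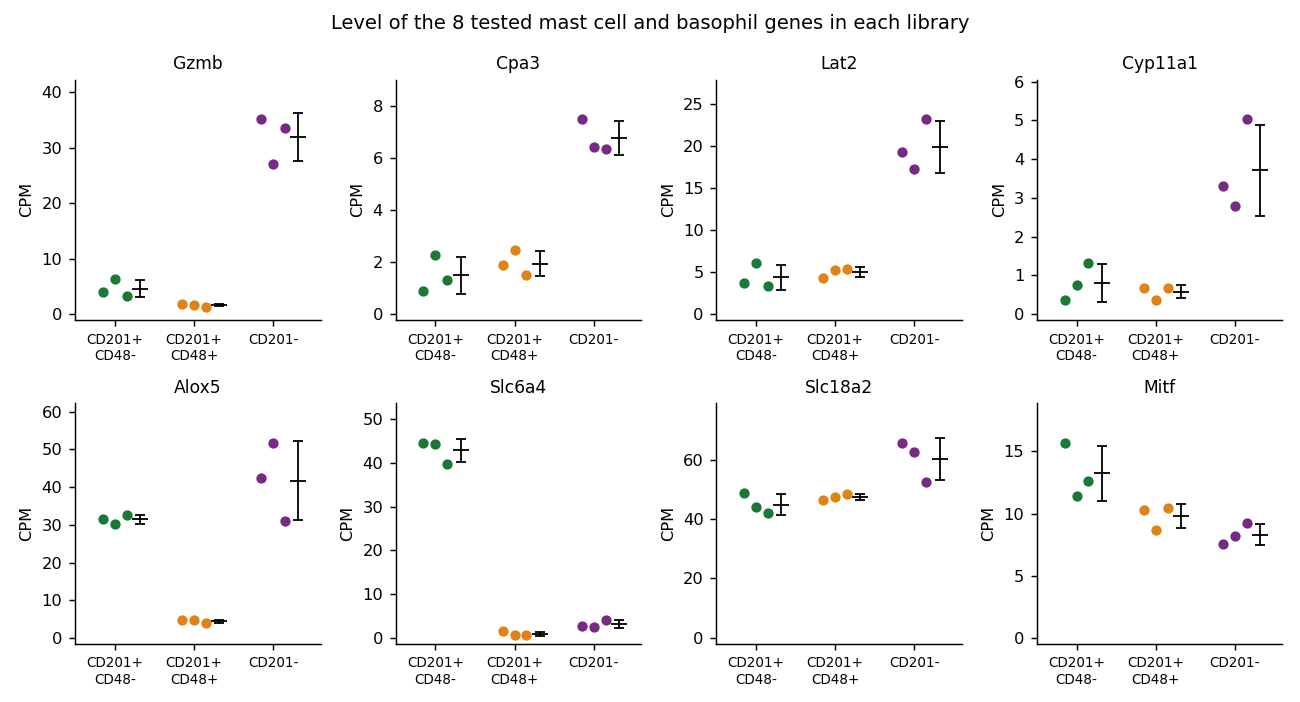
Level of each of the 8 tested genes in CPM (vertical axis, linear, its own range per gene) in the 3 sorted populations (horizontal axis). Dots are libraries, and the dash with bars beside them is the mean and SD of 3 libraries. Slc6a4 stands high in CD201+CD48- libraries alone, Alox5 is low in CD201+CD48+ libraries, and Gzmb, Cpa3, Lat2 and Cyp11a1 are highest in CD201- libraries.

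Gzmb encodes granzyme B, a serine protease of cytotoxic granules that mouse mast cells also store (chromosome 14, 56258836 to 56262334 on GRCm38.p6). The CD201- libraries held 159, 126 and 153 raw counts, the CD201+CD48- libraries 23, 25 and 15, and the CD201+CD48+ libraries 11, 9 and 10. The 3 populations did not overlap, with CD201- highest and CD201+CD48+ lowest. Means were 31.9 ± 4.27 CPM in CD201-, 4.57 ± 1.56 in CD201+CD48- and 1.65 ± 0.256 in CD201+CD48+ libraries. Gzmb was lower than in CD201- by 7.1-fold in CD201+CD48- libraries (log2 fold change -2.83 ± 0.20 (SE), adjusted p = 2.95e-08) and by 19.3-fold in CD201+CD48+ libraries (-4.27 ± 0.23, adjusted p = 7.07e-09). It was 2.72-fold higher in CD201+CD48- than in CD201+CD48+ libraries (log2 fold change 1.44 ± 0.32, adjusted p = 0.00645).

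The other granzyme genes of the same cluster were looked at after these values were seen. None of them passed the filter. Gzmc had 7, 12 and 15 counts in CD201- libraries, 3, 3 and 1 in CD201+CD48- libraries and 0, 1 and 0 in CD201+CD48+ libraries. The others were at or near 0, so they show no pattern like that of Gzmb at this depth. Gzmd, Gzmg and Gzmn had 0 counts in every library. Gzme had 2 counts in CD201- libraries and Gzmf had 1 in CD201+CD48+ libraries, with 0 elsewhere. The split between such related genes is uncertain, since no source used here says how shared reads were assigned. Among 11 markers of natural killer (NK) and T cells, the only one tested was Nkg7, a protein of cytotoxic granules. Nkg7 measured 72, 72 and 40 counts in CD201- libraries, 16, 3 and 5 in CD201+CD48- and 41, 28 and 43 in CD201+CD48+ libraries. Its log2 fold changes from CD201- were -2.98 ± 0.36 (adjusted p = 8.67e-06) and -1.14 ± 0.27 (adjusted p = 0.00579). Between the CD201+ populations it was lower in CD201+CD48- libraries (-1.84 ± 0.40, adjusted p = 0.0053), where Gzmb was higher. Cd3e, Klrd1 and Ifng had 0 counts in all 9 libraries, which allows up to 0.0648 CPM for each (3 counts of 46303043). The perforin gene Prf1 had 2 counts and Gzma 1 over the 9 libraries, and the 11 markers together summed to 8.77 to 16.6 CPM in CD201-, 1.26 to 3.53 in CD201+CD48- and 6.43 to 7.86 in CD201+CD48+ libraries. Most of each sum was Nkg7, with 184 of 190 counts in CD201-, 24 of 37 in CD201+CD48- and 112 of 128 in CD201+CD48+ libraries. The part of these markers in the Gzmb difference was not tested.

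Cpa3 encodes mast cell carboxypeptidase A, a granule protease (chromosome 3, 20215616 to 20242209, overlapping Gm31320, Mir7007 and Gm7428). It had 34, 30 and 29 counts in CD201- libraries, 5, 9 and 6 in CD201+CD48- and 11, 13 and 11 in CD201+CD48+ libraries. The CD201- libraries were all above the other 6. Cpa3 fell from 6.78 ± 0.649 CPM in CD201- to 1.95 ± 0.476 in CD201+CD48+ libraries (log2 fold change -1.81 ± 0.30, adjusted p = 0.000423), and was also lower in CD201+CD48- libraries (-2.23 ± 0.34, adjusted p = 7.27e-05). The CD201+ populations did not pass the test against each other (log2 fold change -0.42, 95% interval -1.29 to 0.46, adjusted p = 0.553).

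Ms4a2 encodes the beta chain of the high-affinity IgE receptor (chromosome 19, 11615517 to 11623790). It was counted 2, 0 and 0 times in CD201+CD48- libraries, 3, 1 and 0 in CD201+CD48+ and 1, 1 and 2 in CD201- libraries. The group totals of 2, 4 and 4 counts show no separation of the populations at this depth. Fcer1a, the IgE-binding alpha chain without which the receptor is not displayed, had 1, 3 and 2 counts in CD201+CD48- libraries, 0 in all CD201+CD48+ libraries and 0, 2 and 0 in CD201- libraries.

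Lat2 encodes an adaptor protein that is phosphorylated downstream of the IgE receptor and is known also from B cells, NK cells and monocytes (chromosome 5, 134600103 to 134619783). Its raw counts were 87, 80 and 106 in CD201- libraries, 21, 24 and 15 in CD201+CD48- and 25, 28 and 39 in CD201+CD48+ libraries. Every CD201- library exceeded every CD201+ library. The level fell from 19.9 ± 3.06 CPM in CD201- libraries to 4.36 ± 1.48 in CD201+CD48- (log2 fold change -2.21 ± 0.22, adjusted p = 1.18e-06) and 4.98 ± 0.611 in CD201+CD48+ libraries (-1.99 ± 0.21, adjusted p = 5.33e-06). The CD201+ populations overlapped (log2 fold change -0.22, 95% interval -0.79 to 0.34, adjusted p = 0.631). The 8 B cell markers summed to 9.89 to 10.9 CPM in CD201+CD48-, 7.18 to 9.35 in CD201+CD48+ and 2.19 to 6.86 in CD201- libraries, with Ms4a1 at 0 counts throughout. Most of that sum was Cd79b, whose CD201+CD48- level was 9.77 ± 0.748 CPM and whose CD201- level was 4.44 ± 2.14 CPM. The NK and T cell markers given above were, like Lat2, highest in sum in CD201- libraries, where most of that sum was Nkg7. The part of either marker list in the Lat2 difference was not tested.

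Of 16 other genes of the IgE receptor and its signalling chain, 15 were tested (all genes called: 48.1%, 29.1% and 15.4% in the 3 comparisons in turn). In CD201+CD48- against CD201- libraries 1 was higher and 7 lower (median log2 fold change -0.169, all genes 0.00318). In CD201+CD48+ against CD201- libraries 0 were higher and 6 lower (median -0.191, all genes -0.0022), and between the CD201+ populations 1 was higher and 3 lower in CD201+CD48- libraries (median 0.0554, all genes -0.00544). Lat, the adaptor related in role to Lat2, was at 45.6 ± 1.66 CPM in CD201- libraries, 19.1 ± 1.43 in CD201+CD48- and 16.1 ± 0.455 in CD201+CD48+ libraries. Its log2 fold changes from CD201- were -1.26 ± 0.11 (adjusted p = 2.27e-07) and -1.50 ± 0.11 (adjusted p = 1.06e-07). Fcer1g, the signalling gamma chain shared with other Fc receptors, was lower than in CD201- libraries in both CD201+ populations, by -0.97 ± 0.17 (adjusted p = 0.000227) and -1.29 ± 0.17 (adjusted p = 3.97e-05). Syk, the kinase that docks on that chain, was lower by -0.66 ± 0.08 (adjusted p = 1.46e-05) and -0.32 ± 0.08 (adjusted p = 0.0089).

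Hdc encodes histidine decarboxylase, which makes histamine (chromosome 2, 126593659 to 126624025). Its counts were 5, 1 and 0 in CD201+CD48- libraries, 0, 2 and 4 in CD201+CD48+ and 1, 0 and 0 in CD201- libraries. These totals of 6, 6 and 1 counts lie near the limit that a count of 0 allows, 3 counts per group, and no difference was detectable at this depth.

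Slc6a4 encodes the serotonin transporter, which loads platelets and some mast cells with serotonin (chromosome 11, 76998597 to 77032343, overlapping Gm12343). The CD201+CD48- libraries held 253, 175 and 180 counts, the CD201+CD48+ libraries 9, 3 and 4, and the CD201- libraries 12, 12 and 19. The CD201+CD48- libraries lay far above the other 6, and the CD201- libraries lay above the CD201+CD48+ libraries in CPM. Slc6a4 measured 42.9 ± 2.66 CPM in CD201+CD48-, 0.885 ± 0.565 in CD201+CD48+ and 3.13 ± 0.893 in CD201- libraries. It was 13.6-fold higher in CD201+CD48- than in CD201- libraries (3.77 ± 0.21 on the log2 scale, adjusted p = 1.57e-09) and 48-fold higher than in CD201+CD48+ libraries (5.59 ± 0.24, adjusted p = 3.02e-10). It was 3.53-fold lower in CD201+CD48+ than in CD201- libraries (-1.82 ± 0.40, adjusted p = 0.00313), which became -2.44 without CD201+CD48+ replicate 1, the library with 9 counts. Without that library the log2 fold change between the CD201+ populations was 6.20.

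Slc6a4 stood beside a set of 13 megakaryocyte and platelet markers. With 12 of them tested, CD201+CD48- libraries had 10 higher and 1 lower than CD201- libraries (median log2 fold change 1.68), 1 was higher and 5 lower in CD201+CD48+ than in CD201- libraries (median -0.921), and 11 were higher in CD201+CD48- than in CD201+CD48+ libraries (median 2.72). The background of all genes called was 48.1%, 29.1% and 15.4% in turn. The markers' summed level was 1720 to 1870 CPM in CD201+CD48-, 436 to 458 in CD201+CD48+ and 663 to 812 in CD201- libraries, and none was at 0 in all libraries. Itgb3, the platelet integrin beta 3, measured 235 ± 39.3, 31.2 ± 1.33 and 66.6 ± 2.71 CPM in the same order. Vwf, von Willebrand factor, measured 715 ± 44.1, 125 ± 9.63 and 65.5 ± 8.63 CPM, so here CD201+CD48+ was above CD201- (log2 fold change 0.93 ± 0.10, adjusted p = 8.26e-06), unlike Slc6a4. Itga2b, the integrin alpha IIb, was lower in CD201+CD48- than in CD201- libraries (-0.26 ± 0.08, adjusted p = 0.0119), also unlike Slc6a4. The part of these markers in the Slc6a4 difference was not tested.

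Slc18a2 encodes the vesicular monoamine transporter VMAT2, which fills granules with histamine and serotonin (chromosome 19, 59260878 to 59296012). It was the most even of the 8 genes, at 48.7, 44.0 and 41.9 CPM in CD201+CD48- libraries, 46.3, 47.4 and 48.3 in CD201+CD48+ and 65.7, 62.6 and 52.4 in CD201- libraries. The CD201- libraries were all highest and the CD201+ populations overlapped. The log2 fold changes from CD201- were -0.42 ± 0.10 (adjusted p = 0.00338) and -0.35 ± 0.10 (adjusted p = 0.0173), and the latter did not pass in 5 of 17 alternatives (range of adjusted p 0.00018 to 0.173), which were library size alone and leaving out CD201- replicate 1 (-0.28, adjusted p = 0.0709) or 2 (-0.32, adjusted p = 0.0519) or CD201+CD48+ replicate 1 (-0.33, adjusted p = 0.058) or 2 (-0.34, adjusted p = 0.0512). The CD201+ populations differed by -0.07 (95% interval -0.29 to 0.15, adjusted p = 0.695).

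Of 9 other genes that make, carry or break down histamine and serotonin, 3 were tested (all genes called: 48.1%, 29.1% and 15.4% in the 3 comparisons in turn). Against CD201- libraries 1 was higher and 1 lower in each CD201+ population (medians 0.304 and 0.333), and between the CD201+ populations 0 were higher and 1 lower in CD201+CD48- libraries (median -0.172). Slc22a3, an organic cation transporter that carries histamine and serotonin, had 643, 612 and 526 counts in CD201- libraries, 273, 227 and 330 in CD201+CD48+ and 8, 11 and 10 in CD201+CD48- libraries. It fell by 5.96 ± 0.17 on the log2 scale from CD201- to CD201+CD48- libraries (adjusted p = 1.19e-12) and by 4.44 ± 0.18 from CD201+CD48+ to CD201+CD48- libraries (adjusted p = 2.2e-10), the opposite direction to Slc6a4 in both. In CD201+CD48+ against CD201- libraries Slc22a3 was lower (-1.53 ± 0.10, adjusted p = 5.32e-08), the same direction as Slc6a4 (-1.82). Hnmt, which inactivates histamine by methylation, was higher in CD201+CD48- than in CD201- libraries (0.82 ± 0.21, adjusted p = 0.00486), and Maoa, monoamine oxidase A, was higher in CD201+CD48+ than in CD201- libraries (0.48 ± 0.16, adjusted p = 0.0349). The serotonin-making enzymes were low, with Tph1 at 0 or 1 count in CD201+CD48- libraries and Ddc at 9, 4 and 5.

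**Figure D2:**
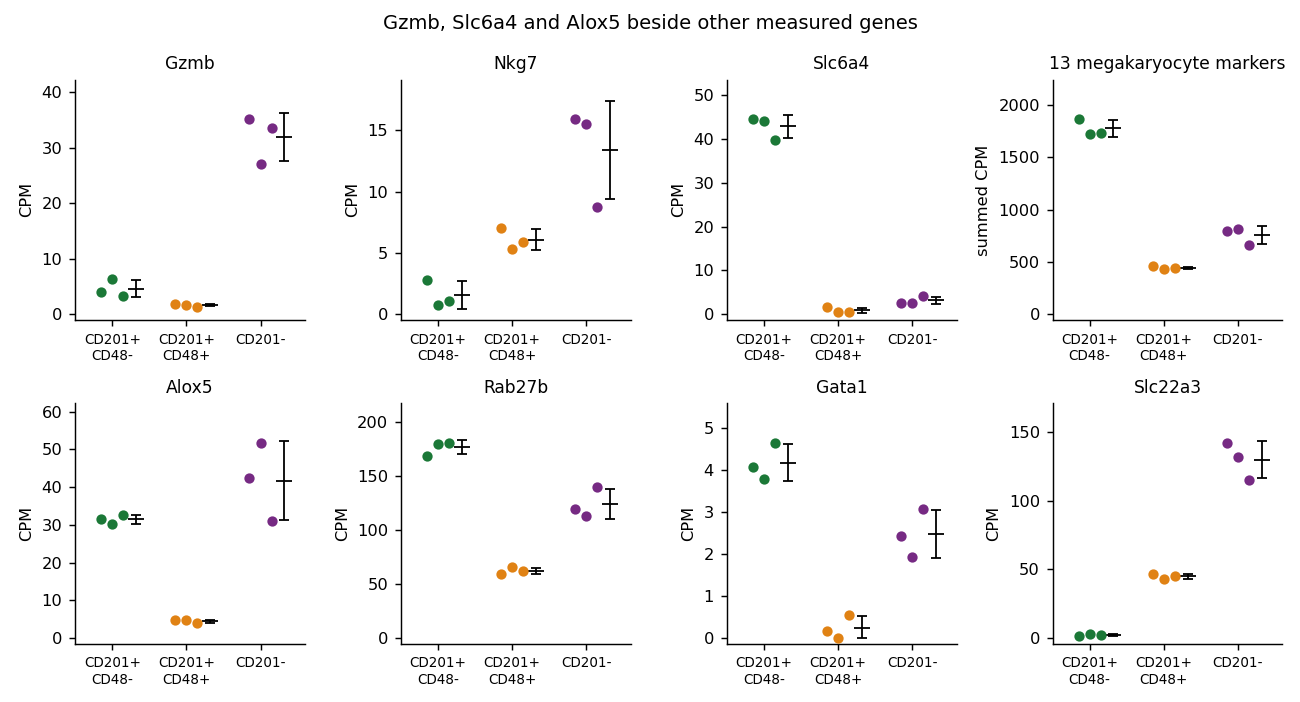
Gzmb, Slc6a4 and Alox5 beside other measured genes, in CPM per library (vertical axes, linear, own range per gene) in the 3 sorted populations (horizontal axis). Dots are libraries and the dash with bars is the mean and SD, the lower end of a bar ending at 0 where the SD exceeds the mean. Slc22a3 falls to 2.13 CPM in CD201+CD48- libraries, where Slc6a4 is at 42.9 CPM.

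Alox5 encodes arachidonate 5-lipoxygenase, the first enzyme of leukotriene synthesis (chromosome 6, 116410071 to 116461178, overlapping Gm38880). Its counts were 178, 120 and 147 in CD201+CD48- libraries, 27, 25 and 28 in CD201+CD48+ and 192, 241 and 141 in CD201- libraries. The CD201+CD48+ libraries were far below all others. Means were 31.4 ± 1.11 CPM in CD201+CD48-, 4.40 ± 0.476 in CD201+CD48+ and 41.7 ± 10.5 in CD201- libraries. Alox5 was 9.55-fold lower in CD201+CD48+ than in CD201- libraries (-3.26 ± 0.20 on the log2 scale, adjusted p = 2.4e-08) and 7.19-fold higher in CD201+CD48- than in CD201+CD48+ libraries (2.85 ± 0.20, adjusted p = 1.58e-07). The difference between CD201+CD48- and CD201- libraries was small (-0.41 ± 0.15, adjusted p = 0.0366). One CD201- library, at 30.9 CPM, lay within the range of the CD201+CD48- libraries, and 11 of 17 alternatives lost the call. The call did not survive leaving out any 1 of the CD201+CD48- libraries, CD201+CD48+ replicate 1, or CD201- replicate 1 or 2, with adjusted p values between 0.0514 and 0.219. Without CD201- replicate 2 the log2 fold change was -0.22 (adjusted p = 0.219).

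Of 9 other genes of eicosanoid synthesis, 6 were tested (all genes called: 48.1%, 29.1% and 15.4% in the 3 comparisons in turn). In CD201+CD48- against CD201- libraries 1 was higher and 2 lower (median -0.101), in CD201+CD48+ against CD201- libraries 0 were higher and 2 lower (median -0.296), and between the CD201+ populations 2 were higher and 1 lower in CD201+CD48- libraries (median 0.287). Alox5ap, the membrane protein that presents arachidonic acid to the lipoxygenase, measured 75.3 ± 4.27, 56.1 ± 5.02 and 48.9 ± 3.16 CPM in CD201+CD48-, CD201+CD48+ and CD201- libraries. It was higher in CD201+CD48- than in either other population (0.62 ± 0.10, adjusted p = 7.52e-05 against CD201-, and 0.42 ± 0.09, adjusted p = 0.00541 against CD201+CD48+). In CD201+CD48+ against CD201- libraries, where Alox5 was lower, Alox5ap did not pass the test (0.20 ± 0.10, adjusted p = 0.133). Pla2g4a, the phospholipase that releases arachidonic acid, was lower than in CD201- libraries in both CD201+ populations (-0.55 ± 0.09, adjusted p = 9.54e-05, and -0.39 ± 0.09, adjusted p = 0.00331). Ptgs1, the prostaglandin enzyme cyclooxygenase-1, was lower in CD201+CD48+ libraries than in CD201- (-0.43 ± 0.08, adjusted p = 0.00137) and CD201+CD48- libraries (0.26 ± 0.08 for CD201+CD48- over CD201+CD48+, adjusted p = 0.0479). The summed level of 12 neutrophil and macrophage markers, cells known to use Alox5, was 36.9 to 44.5 CPM in CD201+CD48-, 29.7 to 32.9 in CD201+CD48+ and 23.2 to 32.1 in CD201- libraries. With 4 tested, 2 were higher in CD201+CD48- than in CD201- libraries, 1 was higher in CD201+CD48+ than in CD201- and 1 in CD201+CD48- than in CD201+CD48+. Their part in the Alox5 difference was not tested.

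Mitf encodes the basic helix-loop-helix factor that mast cells and melanocytes need (chromosome 6, 97807002 to 98021360, overlapping Gm15531). It was at 15.7, 11.4 and 12.6 CPM in CD201+CD48- libraries, 10.3, 8.69 and 10.5 in CD201+CD48+ and 7.53, 8.18 and 9.20 in CD201- libraries. The CD201+CD48- libraries were above the other 6, whose ranges overlapped. Mitf was higher in CD201+CD48- than in CD201- libraries (log2 fold change 0.69 ± 0.19, adjusted p = 0.00627), a call lost without CD201+CD48- replicate 1 (0.53, adjusted p = 0.0505). CD201+CD48+ and CD201- libraries did not pass the test (0.25, 95% interval -0.15 to 0.64, adjusted p = 0.349). Between the CD201+ populations the difference was 0.44 (95% interval 0.08 to 0.81, adjusted p = 0.101), and it passed without CD201- replicate 3 (0.44, adjusted p = 0.0385) and when these 2 populations were fitted alone (0.45, adjusted p = 0.0396).

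All 16 other transcription factor genes on the list were tested (all genes called: 48.1%, 29.1% and 15.4% in the 3 comparisons in turn). In CD201+CD48- against CD201- libraries 3 were higher and 3 lower (median -0.0186), in CD201+CD48+ against CD201- libraries 2 were higher and 7 lower (median -0.0846), and between the CD201+ populations 1 was higher and 0 lower in CD201+CD48- libraries (median 0.07). Cebpa, whose product drives granulocyte fates and basophil commitment, was at 10.9 ± 3.92 CPM in CD201- libraries, 1.27 ± 0.608 in CD201+CD48- and 2.61 ± 0.485 in CD201+CD48+ libraries (-3.01 ± 0.38, adjusted p = 1.11e-05, and -2.03 ± 0.31, adjusted p = 2e-04). Tfec, of the MITF family, exceeded its CD201- level in each CD201+ population (0.68 ± 0.09, adjusted p = 3.07e-05, and 0.70 ± 0.09, adjusted p = 5.52e-05). Gata1, the erythroid, megakaryocyte and mast cell factor, had 23, 15 and 21 counts in CD201+CD48-, 1, 0 and 4 in CD201+CD48+ and 11, 9 and 14 in CD201- libraries. It was lower in CD201+CD48+ than in CD201- libraries (-3.09 ± 0.58, adjusted p = 0.00106). It was higher in CD201+CD48- than in CD201+CD48+ libraries (3.83 ± 0.52, adjusted p = 0.000119). Slc6a4 and Alox5 took the same directions in both of these comparisons. In CD201+CD48- against CD201- libraries Gata1 did not pass the test (0.75 ± 0.36, adjusted p = 0.0999), while Slc6a4 was higher (3.77) and Alox5 lower (-0.41).

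Cyp11a1 encodes the mitochondrial enzyme that cuts the cholesterol side chain to make pregnenolone (chromosome 9, 57998024 to 58027031, overlapping Gm17322). It had 15, 13 and 23 counts in CD201- libraries, 2, 3 and 6 in CD201+CD48- and 4, 2 and 5 in CD201+CD48+ libraries. The CD201- libraries were above all others. Cyp11a1 was lower than in CD201- libraries in CD201+CD48- (log2 fold change -2.22 ± 0.47, adjusted p = 0.00113) and in CD201+CD48+ libraries (-2.59 ± 0.46, adjusted p = 0.000709). The interval between the CD201+ populations was wide (0.38, 95% interval -0.99 to 1.74, adjusted p = 0.759). Of 7 other genes of steroid synthesis 5 were tested (all genes called: 48.1%, 29.1% and 15.4% in the 3 comparisons). The only call was Fdxr, the reductase that feeds electrons to the enzyme, lower in CD201+CD48- than in CD201- libraries (-0.51 ± 0.17, adjusted p = 0.0192). Star, which acts in moving cholesterol into mitochondria, and Tspo did not pass in any of the 3 comparisons.

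**Figure D3:**
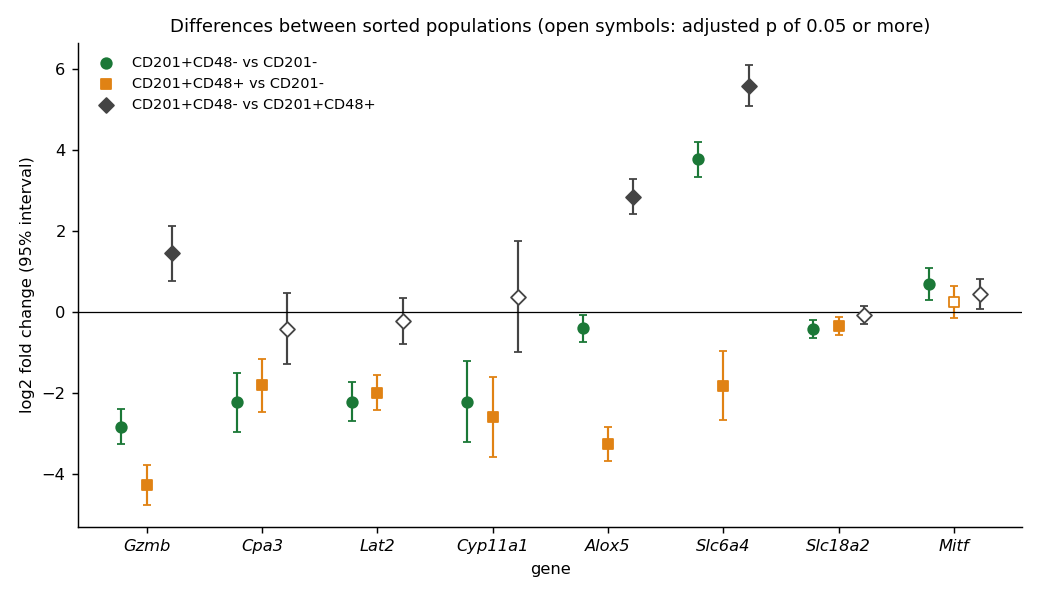
Log2 fold change (vertical axis) of the 8 tested genes (horizontal axis) in the 3 comparisons, shown by colour, with 95% intervals. Filled symbols passed an adjusted p of 0.05 and open symbols did not. Against CD201- libraries, Slc6a4 lies at 3.77 in CD201+CD48- and at -1.82 in CD201+CD48+, while Gzmb lies below 0 in both.

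Genes that define mast cells and basophils were at or near 0. The mast cell protease genes Mcpt1, Mcpt2, Mcpt4, Mcpt9 and Cma1 and the tryptase genes Tpsb2 and Tpsg1, 7 genes, had 0 counts in all 9 libraries. Tpsab1 had 0, 1 and 1 counts in CD201+CD48+ libraries and 0 elsewhere, and Prss34, a basophil protease, had 1 count in 1 library. Mcpt8, a protease that marks mouse basophils, had 5, 8 and 0 counts in CD201- libraries, 1, 0 and 0 in CD201+CD48+ and 0 in CD201+CD48- libraries. Il1rl1, the interleukin-33 receptor, had 7, 7 and 2 counts in CD201- libraries, 3, 7 and 7 in CD201+CD48+ and 1, 0 and 2 in CD201+CD48- libraries. The eosinophil markers, from a related lineage, summed to 3.51 to 7.3 CPM in CD201-, 1.37 to 2.34 in CD201+CD48+ and 0 to 0.664 in CD201+CD48- libraries. Siglecf gave 67 of the 78 counts behind that sum in CD201- libraries and was the only one tested. It was lower in both CD201+ populations than in CD201- libraries (-3.99 ± 0.63, adjusted p = 9.07e-05, and -1.78 ± 0.43, adjusted p = 0.00577). Its part in the differences of Gzmb, Cpa3, Lat2 and Cyp11a1 was not tested.

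**Figure D4:**
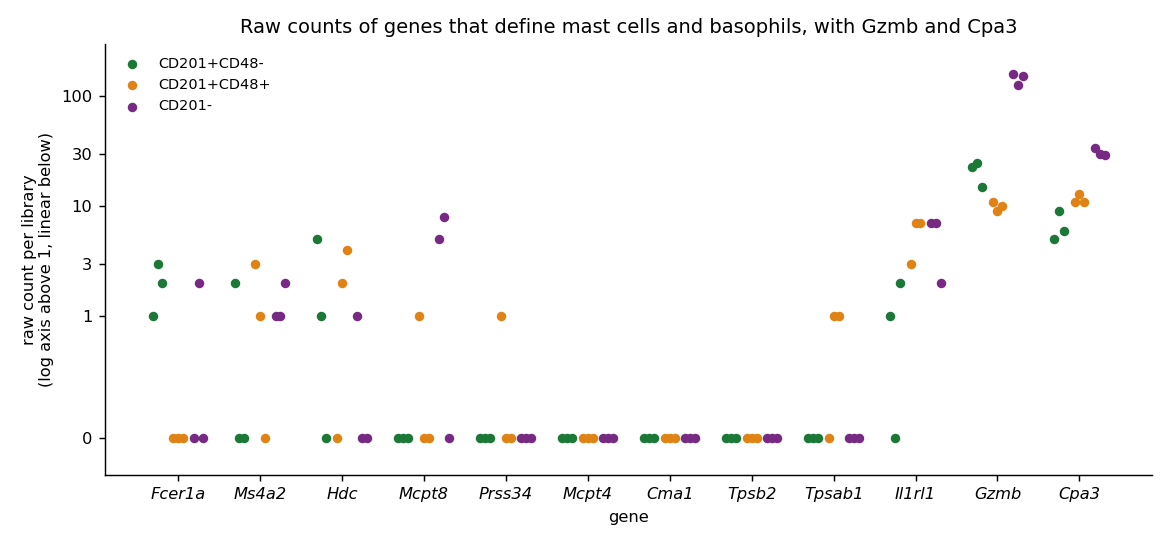
Raw counts per library (vertical axis, logarithmic above 1 and linear below) of genes that define mast cells and basophils, with Gzmb and Cpa3 for scale (horizontal axis). Each dot is a library, coloured by population. Mcpt8 reaches 8 counts and Fcer1a 3, while Gzmb reaches 159.

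Of 19 other granule genes, 7 were tested (all genes called: 48.1%, 29.1% and 15.4% in the 3 comparisons in turn). In CD201+CD48- against CD201- libraries 2 were higher and 1 lower (median 0.135), in CD201+CD48+ against CD201- libraries 0 were higher and 3 lower (median -0.144), and between the CD201+ populations 3 were higher and 0 lower in CD201+CD48- libraries (median 0.169). Rab27b, a GTPase of granule docking in mast cells and platelets, was at 176 ± 6.72 CPM in CD201+CD48-, 62.0 ± 2.98 in CD201+CD48+ and 124 ± 14 in CD201- libraries. It was higher in CD201+CD48- than in CD201- libraries (0.51 ± 0.08, adjusted p = 0.000146) and lower in CD201+CD48+ than in CD201- libraries (-0.999 ± 0.088, adjusted p = 1.1e-06). Ctsg, the granule protease cathepsin G, had 12, 15 and 13 counts in CD201- libraries, 1, 1 and 0 in CD201+CD48- and 0, 2 and 6 in CD201+CD48+ libraries. Cd63, a granule membrane protein, was lower in CD201+CD48+ than in CD201- libraries (-0.41 ± 0.09, adjusted p = 0.00395).

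Of 14 surface receptor genes of mast cells and basophils, 9 were tested (all genes called: 48.1%, 29.1% and 15.4% in the 3 comparisons in turn). In CD201+CD48- against CD201- libraries 4 were higher and 1 lower (median 0.508), in CD201+CD48+ against CD201- libraries 2 were higher and 0 lower (median -0.0603), and between the CD201+ populations 3 were higher and 1 lower in CD201+CD48- libraries (median 0.308). Csf2rb2, the mouse interleukin-3 receptor beta chain, measured 64.0 ± 3.02 CPM in CD201+CD48-, 29.0 ± 4.19 in CD201+CD48+ and 13.4 ± 2.31 in CD201- libraries. It was higher in CD201+CD48- than in CD201- libraries by 2.25 ± 0.14 on the log2 scale (adjusted p = 5.62e-09) and than in CD201+CD48+ libraries by 1.14 ± 0.12 (adjusted p = 1.05e-05). Kit, the SCF receptor, exceeded its CD201- level in each CD201+ population (0.54 ± 0.08, adjusted p = 4.31e-05, and 0.42 ± 0.08, adjusted p = 0.00105).

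Over the 7 lists together, 90 genes, 61 were tested. In CD201+CD48- against CD201- libraries 12 were higher and 16 lower, 45.9% of those tested, close to the 48.1% of all genes. In CD201+CD48+ against CD201- libraries 5 were higher and 19 lower, 39.3% of those tested against 29.1% of all genes. Between the CD201+ populations 10 were higher and 6 lower in CD201+CD48- libraries, 26.2% against 15.4% of all genes. These differences in share were not tested, and the lists were chosen with earlier results of these data known.

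Per kilobase of transcript, a scale on which genes can be compared with each other, the 8 genes ranged from among the lowest of the tested genes to above 70.5% of them. In CD201+CD48- libraries Slc6a4 was at 13.1 CPM per kb, above 55.3% of the 10893 tested genes with a length, Alox5 at 11.1 (50%) and Slc18a2 at 10.9 (49.2%). In CD201- libraries Gzmb stood at 22.3 CPM per kb, above 70.5% of genes, against 1.15 (8.91%) in CD201+CD48+ libraries. Slc6a4 stood above 1.35% of genes in CD201+CD48+ libraries. Cpa3 was above 29.6% of genes in CD201- and 6.09% in CD201+CD48- libraries, and Cyp11a1 was above 14.9% or fewer in every population.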

How the data were processed

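Bulk RNA-seq of 9 samples, 3 replicates of each of 3 sorted populations, was analysed. Sorted cells, over 5000 in each population per the labels' protocols, went into Trizol LS, cDNA came from a SMARTer kit and paired reads of 36 nt from a NextSeq sequencer. The authors deposited whole-number counts per gene, not normalized, and a table of normalized signal that equalled the deposited counts divided by DESeq2 size factors within a relative deviation of 5.1e-10. That table was used in 1 alternative. The submitters' processing notes name mm10 and DESeq2; no source used here gives the aligner, counter, annotation or strand setting, so genes that overlap others are less certain. One component of the shared culture medium is not reported here. The table holds 3 columns that match no sample and were not used.

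The test was edgeR's quasi-likelihood F test (edgeR 4.0.16, R 4.3.3, robust glmQLFit, TMM factors, all 9 samples, group as the only factor). The filterByExpr minimum was 10 counts, and Benjamini-Hochberg adjustment ran over 11619 genes, with a threshold of 0.05. The SE of a log2 fold change is its size divided by the square root of F. The code was tested on simulated data. Alternatives used DESeq2 1.42.0 and limma 3.58.1, other scaling, no filter, 2 groups alone, a replicate block and each library left out. Limits and floors of 3 counts cover counting error only.

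All 10 genes are named. From each other list the 3 tested genes with the smallest p over the comparisons could be named, plus genes that define the cell types; the granzyme cluster genes, Prf1, Gzma, Cd3e, Klrd1, Ifng, Ms4a1, Tph1, Ddc and Il1rl1 were added after their values were seen. The members and lists were chosen with earlier results of these data known. Replicates sharing a number showed no visible pairing, with correlations of their deviations from group means of -0.113 to 0.0447 over 9 pairs. Such values cannot show whether they shared a culture. Transcript lengths are of GENCODE canonical transcripts. Apart from length, GENCODE transcripts were used only to check the promoter starts. Figures used matplotlib 3.10.9.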

Additional observations from a re-analysis of the deposited data

How the results depend on the processing

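Over 17 alternatives, the number of members called stayed at 6 to 8 in CD201+CD48- against CD201-, 6 to 7 in CD201+CD48+ against CD201- and 3 to 4 between the CD201+ populations. All genes called ran from 4754 to 6092 in CD201+CD48- against CD201- and from 2338 to 4242 in CD201+CD48+ against CD201-. The calls of Gzmb, Cpa3, Lat2, Slc6a4 and Cyp11a1 against CD201- held in all 17. Of 407 single-gene values, 386 kept direction and side of the threshold, 18 lost the call, 2 gained it and 1 changed sign. Cyp11a1 between the CD201+ populations had a value in only 16 of the 17 alternatives. The calls lost were Alox5 against CD201- in CD201+CD48- (11), Slc18a2 in CD201+CD48+ (5) and in CD201+CD48- (1, with library size alone, adjusted p = 0.0891), and Mitf (1). Both gained calls were Mitf between the CD201+ populations. The sign change was Cyp11a1 between the CD201+ populations without CD201+CD48- replicate 3 (-0.18, adjusted p = 0.921, not called in either case). Leaving out 1 library gave 0.80 at most there.

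The count of all genes called between the CD201+ populations, 1785, was 3339 when these 2 groups were fitted alone, and 1023 to 3534 with 1 library left out. With library size alone, the median of all genes shifted by 0.17 and 0.134 on the log2 scale in the comparisons with CD201-, and higher calls made up 70.2% in place of 50.3% and 76% in place of 50.9%, with 2 members higher and 4 lower, and 0 higher and 6 lower. With a replicate block, 5322, 3038 and 1441 genes and 8, 7 and 3 members were called; the replicate block changed no member's call. The cause of these changes was not tested. Depth limits Hdc, Ms4a2 and the defining genes, at a few counts per library.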
